A study of Homo sapiens with 8 samples.

Results

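The 8 genes described here encode enzymes that make glutamine, asparagine, aspartate and proline from glutamate and neighbouring metabolites: GLUL, GLUD1, GOT1, GOT2, ASNS, ALDH18A1, PYCR1 and OAT. They were chosen by name, with earlier results of these data known, and all 8 were found among the 20453 genes listed in each library. The cells, labelled as the human monocytic leukaemia line THP-1, carried either introduced wild-type DNMT3A (wild type below) or introduced DNMT3A with the R882H change (mutant below), delivered by transduction. DNMT3A is a DNA methyltransferase that is often mutated in acute myeloid leukaemia. RNA-seq counted mRNA. Ribosome profiling counted footprints, the stretches of mRNA shielded by a ribosome during RNase treatment. There were 8 libraries, 2 in each of 4 groups: mRNA and footprints of each genotype. Both genotypes are transduced lines, and no untransduced group was analysed here. The vector, its promoter, the state of the cell's own DNMT3A alleles and whether a line is 1 clone were not stated in the labels used here.

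Glutamate is the hub of these reactions. Glutamine synthetase adds ammonia to it, transaminases pass its amino group to oxaloacetate to make aspartate, and asparagine synthetase then moves an amide from glutamine onto aspartate. Proline is built from glutamate or from ornithine through the shared intermediate pyrroline-5-carboxylate. In leukaemia cells the pathway is best known for asparagine synthetase, whose level bears on sensitivity to asparaginase and whose gene is a classical target of the stress-induced transcription factor ATF4. The study's title names branched-chain amino acids, whose breakdown hands its amino groups to glutamate.

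Total counts lay between 3415999 and 4523475 in the mRNA libraries and between 603360 and 1988513 in the footprint libraries. Levels are given as CPM, a gene's share of the counts in tested genes at a common library size, scaled by TMM factors within each assay. Each fold change is mutant over wild type, each SE is that of the log2 fold change, and each mean ± SD is over n = 2 libraries. Among the 8 genes the single-library counts ran from 67 (GLUD1, mutant footprint replicate 2) to 6457 (GLUL, wild-type mRNA replicate 2). The wild-type footprint replicates differed by no more than sampling noise, with a chi-square per degree of freedom of 1.01 (p = 0.294). The mutant footprint replicates differed by less than independent sampling would give, with a chi-square per degree of freedom of 0.925 over 8281 genes. The cause of this was not tested. By the same chi-square test the mRNA replicates differed by more (1.08, p = 4.7e-09, in wild type and 1.33, p = 7.7e-104, in mutant). No further library of a group allows a check of whether the footprint pairs are repeats of 1 library, so footprint values of the 8 enzymes and of the neighbouring genes called in footprints are also given with the pair summed. DNMT3A mRNA was 293 ± 2.23 CPM in wild type against 243 ± 2.39 CPM in mutant (edgeR log2 fold change -0.27, adjusted p = 4.3e-06; adjusted p = 0.27 at an assumed coefficient of variation of 10%). DNMT3A footprints were 146 ± 11.6 and 147 ± 3.49 CPM, overlapped and were not called (edgeR adjusted p = 0.992), and counts per gene cannot separate introduced from endogenous DNMT3A. The expression profile mostly went against the cell label: 7 of 12 monocyte and macrophage markers had no count in any of the 4 mRNA libraries (S100A8, S100A9, FCN1, CD163, CSF1R, IRF8 and MPO). From the same list 3 markers, LYZ, SPI1 and CD68, reached 10 CPM in every library, as did all 12 erythroid and megakaryocyte markers. The erythroid markers summed to between 3054 and 3073 CPM in wild-type and between 2657 and 2677 CPM in mutant mRNA, and 4 epithelial markers to between 1166 and 1203 CPM and between 913 and 917 CPM. The part of these differences in the results below was not tested. In bulk samples, fewer cells of a type and less RNA per cell cannot be told apart.

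**Figure D1:**
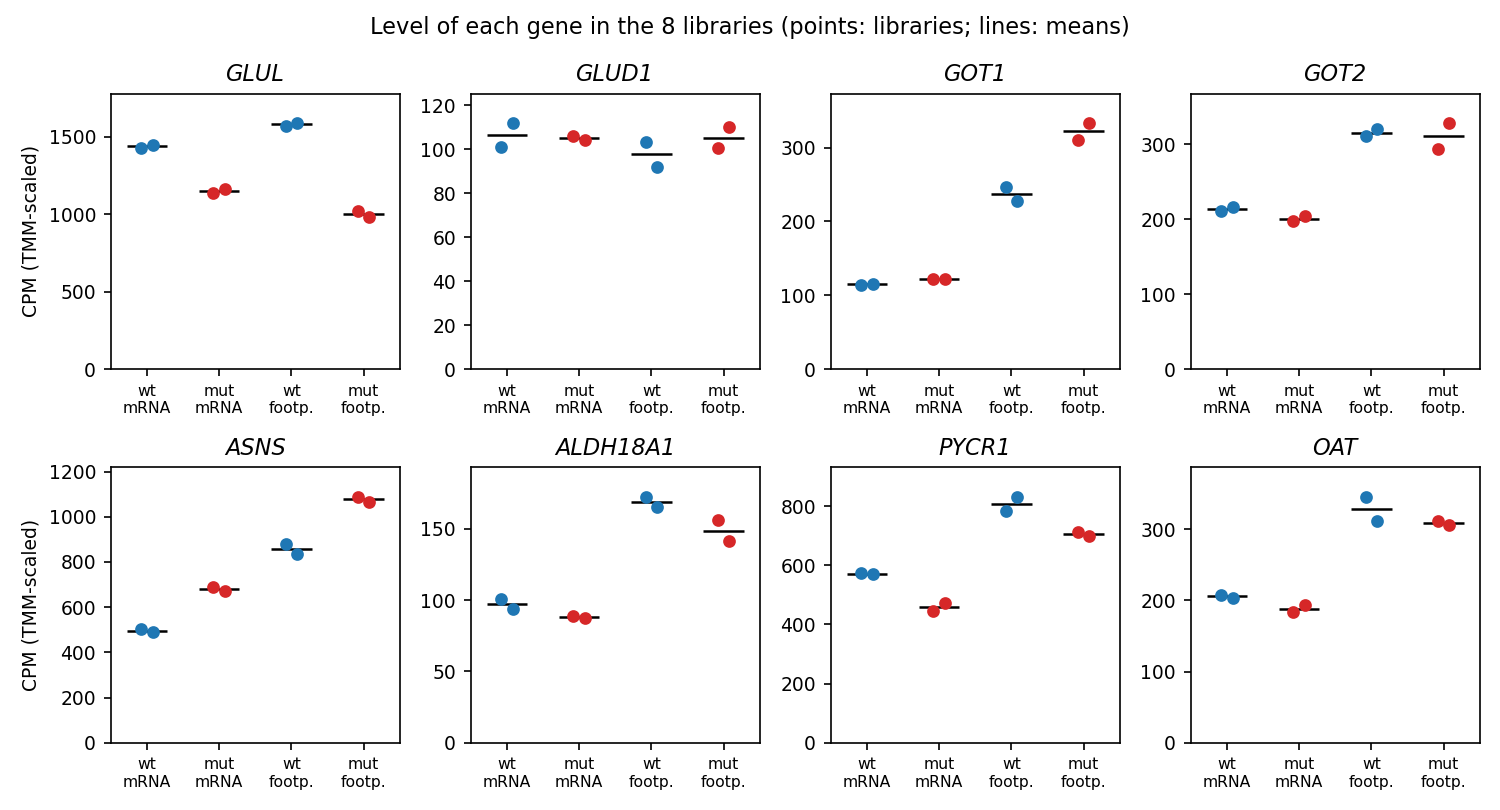
Level of each of the 8 genes in every library, in TMM-scaled CPM on a linear axis from 0; points are libraries (blue wild type, red mutant) and lines are group means. GLUL is lower in mutant mRNA and footprints, ASNS is higher in both, GOT1 is higher in footprints, and PYCR1 is lower in mRNA and footprints.

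Across the 8 genes, the mutant had more ASNS mRNA and less GLUL and PYCR1 mRNA, and more ASNS and GOT1 footprints and fewer GLUL and PYCR1 footprints. In mRNA 1 rose, 2 fell and 5 were not called at an edgeR quasi-likelihood adjusted p under 0.05, against a background of 37.7% of all 10756 genes tested (18.9% higher and 18.9% lower). In footprints 2 rose, 2 fell and 4 were not called, against 21.2% of 9181 genes (10.3% higher and 10.9% lower). In footprints per mRNA, tested as a genotype-by-assay interaction, 1 rose, 1 fell and 6 were not called, against 4.16% of 9166 genes (1.67% higher and 2.49% lower). The median log2 fold change of the 8 genes was -0.11 for mRNA, -0.06 for footprints and 0.04 per mRNA, beside -0.002, 0.006 and -0.001 over all genes tested. All 8 passed the filter on low counts in both assays. Of the 9 calls, the GLUL footprint fall alone held when a biological coefficient of variation of 10% between libraries was assumed in place of the estimate. The libraries of the 2 genotypes did not overlap for 7 of the 8 genes in mRNA, where 67.8% of all genes did not overlap, and for 5 of 8 in footprints, where 58.8% did not.

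**Figure D2:**
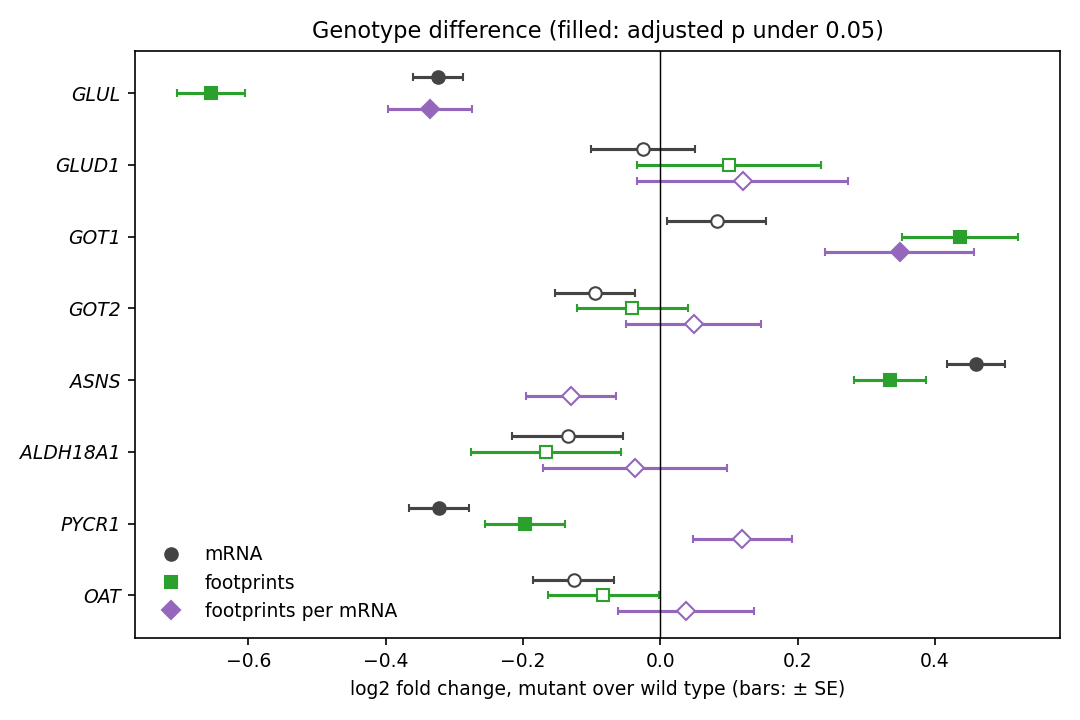
Difference between genotypes for each gene as log2 fold change ± SE in mRNA, footprints and footprints per mRNA; filled symbols passed an adjusted p under 0.05. GLUL lies to the left in all 3 comparisons, GOT1 to the right in footprints and footprints per mRNA, and ASNS to the right in mRNA and footprints.

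GLUL encodes glutamine synthetase, the enzyme that makes glutamine from glutamate and ammonia (ENSG00000135821, GRCh38 chromosome 1, 182378098 to 182391790). Its mRNA was 1432 and 1448 CPM in wild type against 1135 and 1166 CPM in mutant, with no overlap. It fell to 0.799-fold, a log2 fold change of -0.32 (SE 0.037, edgeR adjusted p = 1.3e-16). GLUL footprints were 1572 and 1590 CPM in wild type against 1020.5 and 983 CPM in mutant. They fell to 0.635-fold, a log2 fold change of -0.65 (SE 0.049, edgeR adjusted p = 4.6e-22), which ranked 439th from the lowest of 9181 genes. Footprints per GLUL mRNA fell as well, with an interaction of -0.34 (SE 0.061, edgeR adjusted p = 7.3e-05). The ratio of footprint to mRNA CPM was 1.10 and 1.10 in wild type (replicates 1 and 2) and 0.899 and 0.843 in mutant. With the footprint libraries of a genotype summed and counted as 1, the log2 ratio was -0.65 (95% exact binomial counting interval -0.73 to -0.57). Under an assumed biological coefficient of variation of 10% between libraries the footprint fall was still called (edgeR adjusted p = 0.0025), while the mRNA fall (adjusted p = 0.17) and the interaction (adjusted p = 0.968) were not.

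ASNS encodes asparagine synthetase, which makes asparagine from aspartate with the amide of glutamine (ENSG00000070669, GRCh38 chromosome 7, 97851677 to 97928441). Its mRNA was 502 and 489 CPM in wild type against 689 and 671 CPM in mutant, with no overlap. It rose 1.38-fold, by 0.46 on the log2 scale (SE 0.043, edgeR adjusted p = 2.8e-24). ASNS footprints were 879 and 835 CPM in wild type against 1089.5 and 1065 CPM in mutant, and rose 1.26-fold, by 0.33 on the log2 scale (SE 0.052, edgeR adjusted p = 2.2e-07). The summed footprint libraries gave 0.34 (counting interval 0.25 to 0.42). Footprints per ASNS mRNA had an interaction of -0.13 (SE 0.066) and were not called (edgeR adjusted p = 0.301), with ratios of 1.75 and 1.71 in wild type and 1.58 and 1.59 in mutant. Under the assumed coefficient of variation of 10% neither ASNS change was called (edgeR adjusted p = 0.0563 in mRNA and 0.211 in footprints).

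GOT1 encodes the cytosolic aspartate aminotransferase, and GOT2 the mitochondrial one; together they run the transamination steps of the malate-aspartate shuttle. GOT1 mRNA (ENSG00000120053, GRCh38 chromosome 10, 99396870 to 99430624) was 115 and 116 CPM in wild type against 123 and 122 CPM in mutant, a log2 fold change of 0.08 (SE 0.073) that was not called (edgeR adjusted p = 0.388). GOT1 footprints were 247 and 228 CPM in wild type against 311 and 333 CPM in mutant. They rose 1.35-fold, by 0.44 on the log2 scale (SE 0.085, edgeR adjusted p = 3.4e-05), and the summed libraries gave 0.44 (counting interval 0.27 to 0.60). Footprints per GOT1 mRNA rose by an interaction of 0.35 (SE 0.11) that lay at the threshold (edgeR adjusted p = 0.0477). That call was lost without any 1 of 7 of the 8 libraries, the exception being wild-type footprint replicate 1, with values from 0.28 (adjusted p = 0.24, without wild-type footprint replicate 2) to 0.40 (adjusted p = 0.136, without mutant footprint replicate 1); DESeq2 gave an adjusted p of 0.297. GOT2 (ENSG00000125166, GRCh38 chromosome 16, 58707131 to 58734316) was called in none of the 3 comparisons, with an mRNA log2 fold change of -0.09 (SE 0.058, edgeR adjusted p = 0.191) and a footprint log2 fold change of -0.04 (SE 0.081, adjusted p = 0.779). Its mRNA was 211 and 217 CPM in wild type against 197 and 204 CPM in mutant, and its footprints overlapped, at 311 and 320.1 CPM against 293 and 328 CPM. The summed GOT2 footprints gave -0.043 (counting interval -0.20 to 0.11).

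The promoter windows of the 2 enzymes whose footprints rose and of the one that fell most are shown for comparison, as 250 bases before the transcript start from RefSeq (GRCh38.p14, minus strand, written 5′ to 3′). Capitals mark a match to TGATGNAA on either strand, the core of the composite site that C/EBP and ATF proteins bind. They lie at chr7:97872409-97872658 (ASNS, the first of its 2 listed starts), chr10:99430625-99430874 (GOT1) and chr1:182391791-182392040 (GLUL, the first of 2).
ASNS: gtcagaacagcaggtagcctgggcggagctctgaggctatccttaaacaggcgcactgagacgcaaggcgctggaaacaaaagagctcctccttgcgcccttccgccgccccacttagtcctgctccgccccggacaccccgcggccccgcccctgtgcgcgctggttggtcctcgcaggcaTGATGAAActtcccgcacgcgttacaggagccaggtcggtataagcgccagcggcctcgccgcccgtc
GOT1: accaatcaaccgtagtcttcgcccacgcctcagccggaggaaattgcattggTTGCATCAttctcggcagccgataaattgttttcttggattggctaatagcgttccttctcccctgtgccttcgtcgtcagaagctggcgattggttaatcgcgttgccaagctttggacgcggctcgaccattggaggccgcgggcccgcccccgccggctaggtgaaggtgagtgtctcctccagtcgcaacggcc
GLUL: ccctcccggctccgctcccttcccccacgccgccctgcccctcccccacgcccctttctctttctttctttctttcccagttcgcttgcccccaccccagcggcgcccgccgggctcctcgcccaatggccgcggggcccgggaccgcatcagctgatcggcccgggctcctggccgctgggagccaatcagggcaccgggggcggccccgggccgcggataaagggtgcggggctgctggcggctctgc
The ASNS match, TGATGAAA, begins 68 bases before the start, and the GOT1 match reads TTGCATCA, the reverse strand of the motif, from 198 bases before the start. Over all promoters of the same 300-base length (250 before and 50 after a start), 3.62% of 35116 held such a match. Of the 9 promoters listed for these enzymes, which cover every one but PYCR1, 2 held it. The E-box CACGTG, a palindrome bound by MYC among others, was found in 7.26% of all promoters and in 1 of the 9, that of ALDH18A1, 136 bases before the start. The 2 motifs did not overlap in these windows. Of the 2 enzymes with a TGATGNAA match, ASNS was called higher in mRNA and GOT1 was not called (edgeR adjusted p = 2.8e-24 and 0.388). A match is a description of the letters and not a measured binding site, and a link between match and level was not tested.

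PYCR1 encodes the mitochondrial reductase of the last step of proline synthesis, and ALDH18A1 the synthase of the first step from glutamate. PYCR1 mRNA (ENSG00000183010, GRCh38 chromosome 17, 81932391 to 81937300) was 572 and 571 CPM in wild type against 444 and 471 CPM in mutant. It fell to 0.80-fold, a log2 fold change of -0.32 (SE 0.044, edgeR adjusted p = 1.2e-11). PYCR1 footprints were 782 and 832 CPM in wild type against 711 and 698 CPM in mutant, and fell by 0.20 on the log2 scale (SE 0.058, edgeR adjusted p = 0.0077; summed libraries -0.20, counting interval -0.30 to -0.10). The footprint call was lost without wild-type replicate 2 (-0.15, adjusted p = 0.103), mutant replicate 1 (-0.21, adjusted p = 0.169) or mutant replicate 2 (-0.19, adjusted p = 0.106), and with DESeq2 (adjusted p = 0.134). Footprints per PYCR1 mRNA were not called (interaction 0.12, SE 0.072, edgeR adjusted p = 0.401). ALDH18A1 (ENSG00000059573, GRCh38 chromosome 10, 95605941 to 95656711) was not called, with mRNA at 101 and 93.5 CPM against 88.6 and 87.7 CPM (difference in log2 -0.14, SE 0.081, edgeR adjusted p = 0.179) and footprints at 173 and 165 CPM against 156 and 141 CPM (-0.17, SE 0.11, adjusted p = 0.289). In both assays its wild-type libraries lay above its mutant libraries, and the summed footprints gave -0.17 (counting interval -0.39 to 0.055).

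OAT, the mitochondrial aminotransferase that links ornithine to pyrroline-5-carboxylate, and GLUD1, the mitochondrial dehydrogenase that interconverts glutamate and 2-oxoglutarate, passed no test. OAT mRNA (ENSG00000065154, GRCh38 chromosome 10, 124397303 to 124418923) was 208 and 203 CPM in wild type against 184 and 193 CPM in mutant, a difference of -0.13 (SE 0.059, edgeR adjusted p = 0.0808), and with the replicate number as a block it was called (adjusted p = 0.0483). OAT footprints were 346 and 311 CPM against 311 and 305 CPM, a difference of -0.08 (SE 0.081, adjusted p = 0.506; summed libraries -0.081, counting interval -0.24 to 0.074). GLUD1 mRNA (ENSG00000148672, GRCh38 chromosome 10, 87050202 to 87094843) was 101 and 112 CPM against 106 and 104 CPM, with the mutant values inside the wild-type range (log2 fold change -0.02, SE 0.076, edgeR adjusted p = 0.83). GLUD1 footprints were 103 and 92.1 CPM against 100.5 and 110.0 CPM (difference in log2 0.10, SE 0.13, adjusted p = 0.651). The summed footprint libraries gave 0.10 for GLUD1, with a counting interval of -0.18 to 0.37.

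Copies of some of these genes could share reads with them. The reference table names 6 pseudogenes for GLUL, 6 for GLUD1, 7 for GOT2, 5 for ASNS and 1 for OAT, and none by that pattern for GOT1, ALDH18A1 or PYCR1. GLUD1 overlaps SHLD2, and ASNS overlaps the read-through transcript CZ1P-ASNS. The retrocopy GLUD2 had 54 counts over the 4 mRNA libraries where GLUD1 had 1722, and 15 against 504 in footprints. How reads that match several places were counted was not stated in the labels used here, so GLUL, GLUD1, GOT2, ASNS and OAT values are uncertain to that extent.

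Footprints relative to mRNA were then read as a level within each genotype, which differs between genes also by what each assay counts along a transcript. The median ratio over 9166 genes was 1.03 in wild type and 1.01 in mutant. GOT1 had the highest ratio of the 8 enzymes, 2.06 in wild type (percentile 92.0 of all genes) and 2.64 in mutant (percentile 97.3). ASNS and ALDH18A1 followed in wild type at 1.73 and 1.73, then OAT at 1.60, GOT2 at 1.48, PYCR1 at 1.41, GLUL at 1.10 and GLUD1 at 0.918. In mutant cells GLUL stood at 0.871 (percentile 39.2, from 55.1 in wild type), the lowest of the 8, and GLUD1 at 0.99995 (percentile 49.0). ALDH18A1, OAT, ASNS, GOT2 and PYCR1 lay between 1.54 and 1.68 in mutant, with single replicates from 1.48 (PYCR1) to 1.76 (ALDH18A1). In wild type 1 of the 8 lay below the median of all genes and in mutant 2 did. Abundances of different genes were not compared, since transcript lengths were not used here.

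**Figure D3:**
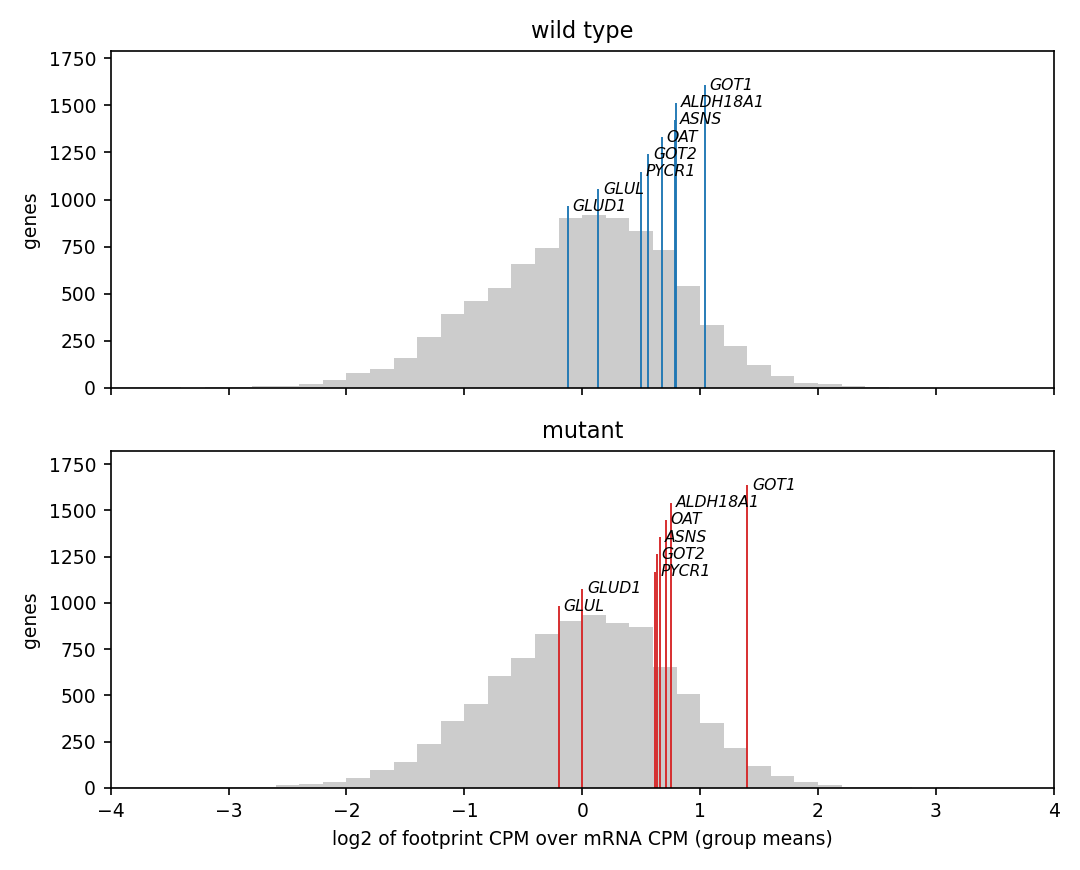
Number of genes by log2 of the ratio of footprint CPM to mRNA CPM (group means) in wild type and in mutant, in bins of 0.2, with a line for each of the 8 enzymes; line heights only separate the labels. GOT1 lies farthest right in both genotypes, and GLUL moves from right to left of GLUD1.

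Fold changes between genotypes moved with local gene density over all genes, and PYCR1 lies in the densest neighbourhood of the 8. Density was the number of protein-coding genes with their lowest coordinate within 500 kb of that of the gene, itself included. It was 44 for PYCR1, against 7 to 13 for the other enzymes. Genes with 41 to 60 by that count had a median mRNA log2 fold change of -0.25 (682 genes), and those with 6 to 10 a median of 0.15 (2819 genes). In footprints the medians were -0.17 and 0.11. With this trend removed, PYCR1 stood at -0.09 in mRNA (edgeR adjusted p = 0.0954) and -0.03 in footprints (adjusted p = 0.774), neither called. GLUL then stood at -0.44 and -0.74 and ASNS at 0.33 and 0.23 in mRNA and footprints, all called, and GOT1 footprints at 0.35 (edgeR adjusted p = 0.0013). The mRNA values of GOT2 (-0.23), ALDH18A1 (-0.27) and OAT (-0.27), not called before, were called lower in that fit (edgeR adjusted p = 0.00091, 0.0061 and 6.6e-05), while GOT1 mRNA turned to -0.03 (adjusted p = 0.791). The cause of the trend was not tested.

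**Figure D4:**
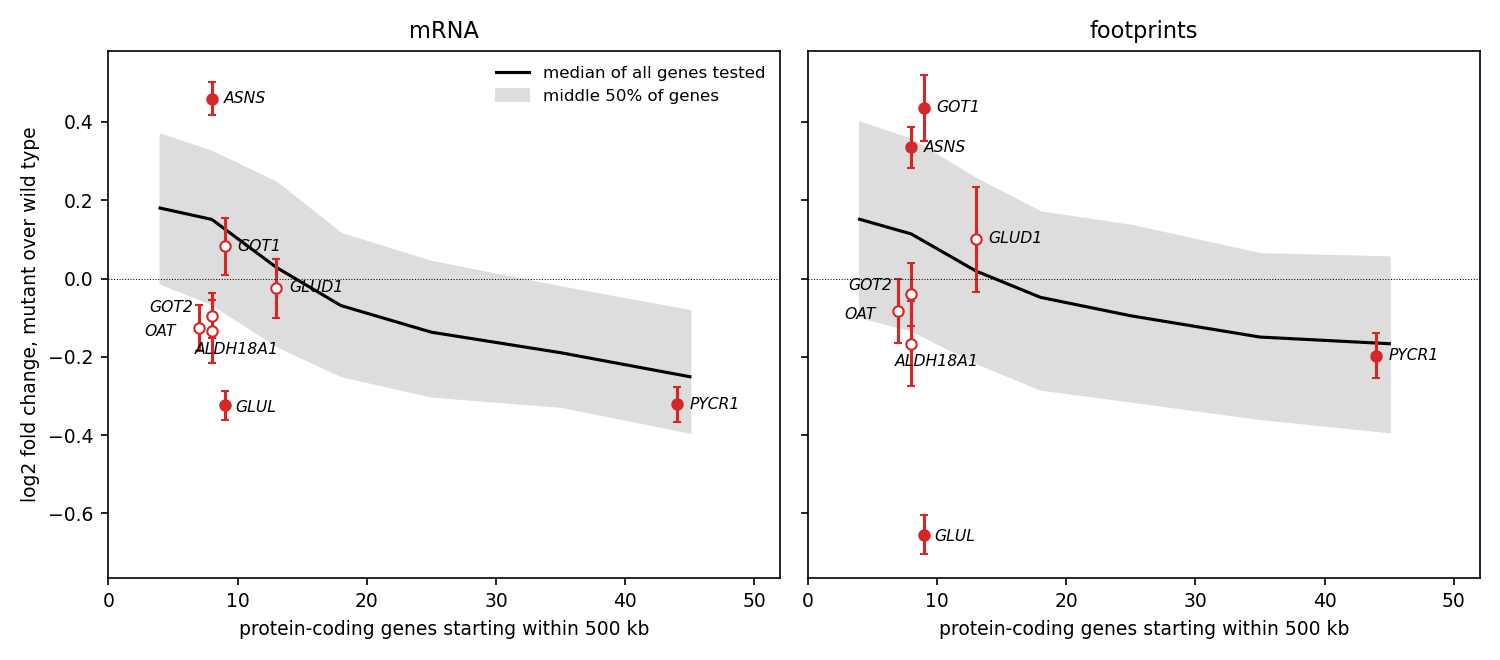
Log2 fold change of mRNA and of footprints, mutant over wild type, against the number of protein-coding genes with their lowest coordinate within 500 kb, the gene itself included. The line is the median of all genes by bin, the band the middle 50%, and red points ± SE the 8 enzymes, filled where called. PYCR1 lies near the line at 44 genes, while GLUL lies below the band and ASNS above it in mRNA at 9 and 8 genes.

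Among other genes of glutamine and glutamate use 1 was called. Of 9 listed genes 5 were tested in mRNA, of which 1 rose (37.7% of all genes were called), and 4 in footprints, of which 1 rose (21.2% of all genes), so that these shares were near or below those of all genes. The one was PSAT1, the transaminase of serine synthesis that takes its amino group from glutamate. PSAT1 mRNA was 288 ± 19.7 CPM in wild type against 329 ± 6.16 CPM in mutant (edgeR adjusted p = 0.00048), and its footprints 355 ± 1.93 and 460.5 ± 26.7 CPM (difference in log2 0.39, adjusted p = 1.2e-05). Leaving out wild-type mRNA replicate 2 ended the mRNA call (0.13, adjusted p = 0.20) as did removing the density trend (0.03, adjusted p = 0.70), and the footprint call was lost without mutant footprint replicate 1 (0.32, adjusted p = 0.0939). The summed PSAT1 footprints gave 0.39 (counting interval 0.26 to 0.52). In footprints per mRNA edgeR called 0 of 4 where 4.16% of all genes were called (1 at an unadjusted p under 0.05, and 0 by DESeq2).

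Around proline and ornithine, 5 of 9 listed genes were tested, and in mRNA 1 rose and 2 fell, against 37.7% of all genes called. ODC1, the first enzyme of polyamine synthesis, rose by 0.22 on the log2 scale, with means of 368 and 429 CPM (SE 0.047, edgeR adjusted p = 2e-05). PYCR3, a cytosolic relative of PYCR1, fell (-0.69, SE 0.21, adjusted p = 0.0038), and so did ALDH4A1, which oxidises the proline intermediate back to glutamate (-0.35, SE 0.13, adjusted p = 0.0256). DESeq2 called 1 of the 5 genes in mRNA, ODC1, and gave no adjusted p for PYCR3 mRNA. Leaving out wild-type replicate 1 ended the PYCR3 call (-0.50, adjusted p = 0.121), and that of ALDH4A1 was lost without either wild-type replicate or mutant replicate 1 (adjusted p up to 0.201) and by DESeq2 (adjusted p = 0.234). In footprints and in footprints per mRNA edgeR called 0 of 5 genes, where 21.2% and 4.16% of all genes were called. In each, 1 had an unadjusted p under 0.05 and DESeq2 called 0.

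Of 10 genes of aspartate and asparagine use and of the malate-aspartate shuttle, 9 were tested. In mRNA 1 rose and 2 fell, and in footprints 1 rose and 1 fell, against 37.7% and 21.2% of all genes called. MDH2, the mitochondrial malate dehydrogenase that works beside GOT2, fell in mRNA, with means of 1046 ± 2.80 and 909 ± 13.6 CPM and a log2 fold change of -0.20 (SE 0.038, edgeR adjusted p = 1.8e-06). MDH2 footprints fell too, with means of 1672 ± 38.4 and 1389 ± 19.9 CPM (-0.27, SE 0.046, edgeR adjusted p = 2.2e-06). Both MDH2 calls held with each library left out and with the density trend removed, and the summed footprints gave -0.27 (counting interval -0.34 to -0.20). At the assumed coefficient of variation of 10% the MDH2 mRNA call was lost (edgeR adjusted p = 0.408). ASS1, which joins aspartate to citrulline, rose in mRNA (0.59, SE 0.12, edgeR adjusted p = 1.6e-05). SLC25A11, the 2-oxoglutarate carrier of the shuttle, fell in mRNA (-0.26, SE 0.10, adjusted p = 0.0307), with values from -0.29 to -0.13 and no call without wild-type replicate 2 or either mutant replicate, or by DESeq2 (adjusted p = 0.272). SLC25A13, an aspartate-glutamate carrier, rose in footprints (0.37, SE 0.13, adjusted p = 0.0258), a call lost without 3 of the 4 footprint libraries (adjusted p up to 0.366) and by DESeq2 (adjusted p = 0.272); the summed libraries gave 0.37 (counting interval 0.11 to 0.63). The other 6 tested in mRNA and 7 in footprints were not called. In footprints per mRNA edgeR called 0 of 9, where 4.16% of all genes were called (0 at an unadjusted p under 0.05, 0 by DESeq2).

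Of 9 amidotransferases, enzymes that spend the glutamine amide, 8 were tested. In mRNA 4 rose and 2 fell, where 18.9% of all genes rose and 18.9% fell, and in footprints 1 rose and 1 fell, where 10.3% and 10.9% did. DESeq2 called 4 of the 8 in mRNA and 0 in footprints, where it called 1467 of 10756 and 397 of 9181 genes in all. PPAT, which commits glutamine to purine synthesis, rose by 0.52 on the log2 scale, with means of 52.1 and 74.9 CPM (SE 0.097, edgeR adjusted p = 9.6e-07), and GFPT1, the first enzyme of hexosamine synthesis, rose by 0.39 (SE 0.082, adjusted p = 2.3e-05). GMPS rose (0.24, adjusted p = 0.0014) and CTPS2 rose (0.34, adjusted p = 0.0343); both calls ended when wild-type mRNA replicate 2 was left out (0.23 and 0.22, adjusted p = 0.0654 and 0.373), and that of CTPS2 also without mutant replicate 1 (0.17, adjusted p = 0.488). DESeq2 called neither (adjusted p = 0.076 for GMPS and 0.291 for CTPS2). CAD, which starts pyrimidine synthesis, fell (-0.29, SE 0.055, adjusted p = 1.6e-06), and so did PFAS, a further purine enzyme (-0.33, SE 0.078, adjusted p = 0.00021); with the density trend removed neither was called (-0.09 and -0.15). In footprints PPAT rose (0.63, SE 0.16, edgeR adjusted p = 0.0012) and CAD fell (-0.28, SE 0.10, adjusted p = 0.0445). The PPAT footprint call was lost without mutant replicate 1 (0.46, adjusted p = 0.253), and that of CAD without wild-type replicate 2 or either mutant replicate (adjusted p up to 0.447), with the density trend removed (-0.13, adjusted p = 0.443) and by DESeq2 (adjusted p = 0.321); DESeq2 gave no adjusted p for PPAT footprints. The summed libraries gave 0.63 for PPAT (counting interval 0.31 to 0.95) and -0.28 for CAD (-0.49 to -0.067). In footprints per mRNA edgeR called 1 of 8, GMPS, which was lower (-0.43, SE 0.12, adjusted p = 0.0233). The share over all genes was 4.16% (1 of the 8 had an unadjusted p under 0.05, and DESeq2 called 0). GMPS and CTPS2, like the stress regulators ATF4, ATF3, DDIT3, CEBPG and CHAC1 below, were named after their values were seen.

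**Figure D5:**
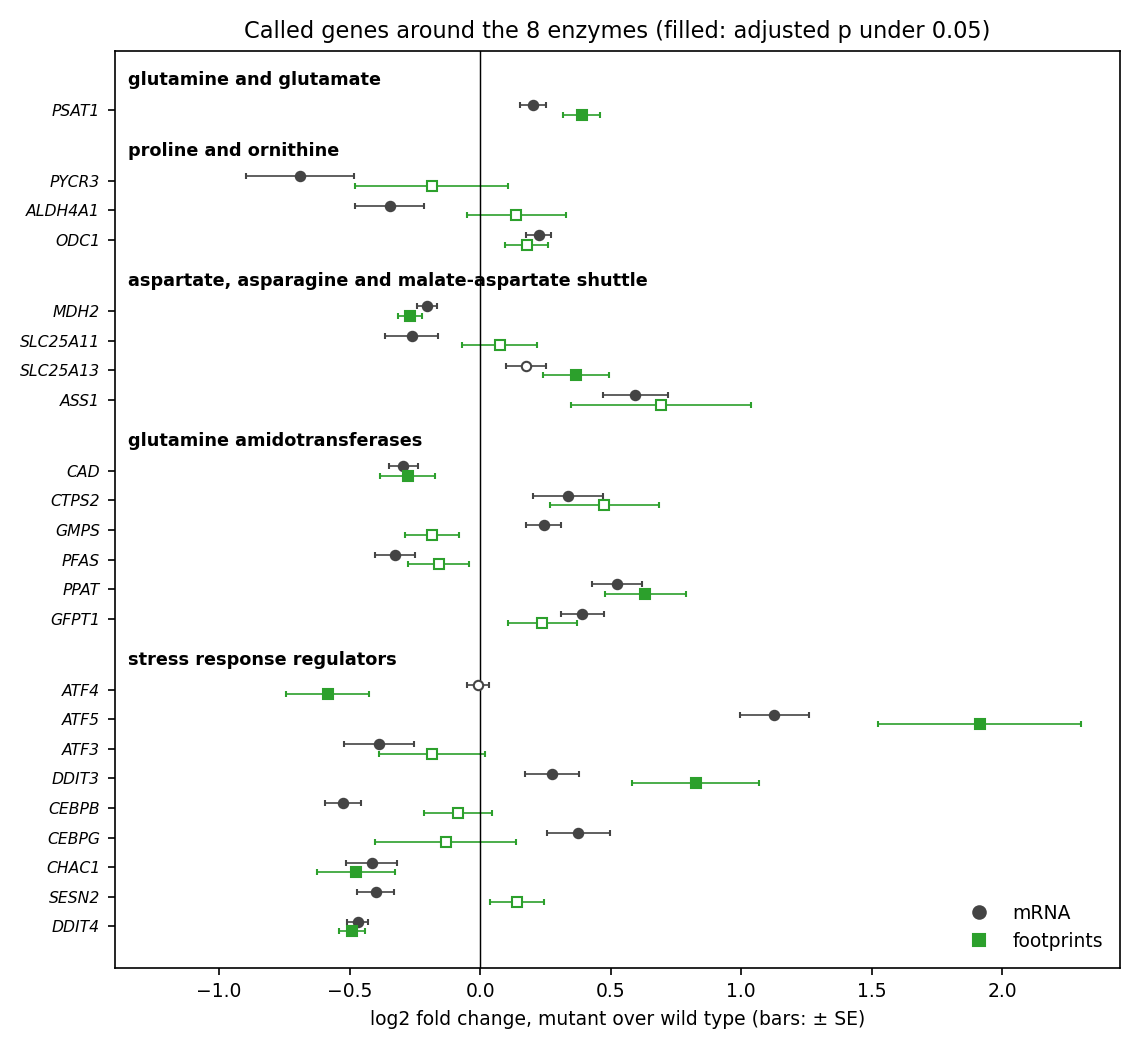
Log2 fold change ± SE, mutant over wild type, in mRNA and footprints for the genes called in either assay from 4 lists of neighbouring metabolism and a list of stress response regulators; filled symbols passed an adjusted p under 0.05. PPAT, ASS1 and ATF5 lie to the right in mRNA, and CAD, MDH2 and DDIT4 to the left in both assays.

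A list of 10 regulators and effectors of the amino acid stress response held genes called in both directions. In mRNA 3 rose and 5 fell, where 18.9% of all genes rose and 18.9% fell, and in footprints 2 rose and 3 fell, where 10.3% and 10.9% did. DESeq2 called 4 of the 10 in mRNA and 1 in footprints, where it called 1467 of 10756 and 397 of 9181 genes in all. It gave no adjusted p for the footprints of ATF4, ATF5 and DDIT3. ATF4 mRNA did not differ by more than the spread, at 531 and 526 CPM in wild type against 520.3 and 531 CPM in mutant (difference in log2 -0.01, SE 0.044, edgeR adjusted p = 0.908). ATF4 footprints were 82.5 and 89.5 CPM in wild type against 58.6 and 55.8 CPM in mutant, with no overlap. They fell by 0.58 on the log2 scale (SE 0.16, edgeR adjusted p = 0.0041), and footprints per ATF4 mRNA had an interaction of -0.58 (SE 0.17, adjusted p = 0.028; DESeq2 adjusted p = 0.071). The counted feature was not stated, so footprints within and outside a coding region cannot be told apart in these counts. The ATF4 footprint call was lost without mutant footprint replicate 1 (-0.63, adjusted p = 0.135) or replicate 2 (-0.56, adjusted p = 0.0659). ATF5, a relative of ATF4, rose in mRNA (1.13, SE 0.13, adjusted p = 2.8e-15) and in footprints (1.91, SE 0.39, adjusted p = 7.5e-05), the latter on 46 counts in all, and its footprint call was lost without mutant footprint replicate 1 (1.74, adjusted p = 0.116). DDIT3, the factor also called CHOP, rose in mRNA (0.27) and footprints (0.83), and CEBPG rose in mRNA (0.38). DDIT4, an inhibitor of mTORC1, fell in mRNA (-0.47) and footprints (-0.49), CHAC1, which breaks down glutathione, fell in both (-0.42 and -0.48), and CEBPB, ATF3 and the leucine sensor SESN2 fell in mRNA (-0.52, -0.39 and -0.40). At the assumed coefficient of variation of 10% the SESN2 mRNA call was lost (edgeR adjusted p = 0.123). With each library left out, the DDIT4, CEBPB and SESN2 calls held in the assay named. Those of DDIT3 were lost without 2 of the 4 mRNA libraries and 3 of the 4 footprint libraries (edgeR adjusted p up to 0.245 and 0.192), those of CHAC1 without 1 and 3 (up to 0.133 and 0.34), that of CEBPG without 2 (up to 0.11) and that of ATF3 without 3 (up to 0.255). DESeq2 did not call the mRNA of ATF3 (adjusted p = 0.189), DDIT3 (0.224), CEBPG (0.134) or CHAC1 (0.0501), or CHAC1 footprints (0.219). The summed footprint libraries gave -0.59 for ATF4 (counting interval -0.94 to -0.24), 1.94 for ATF5 (1.02 to 2.89), 0.83 for DDIT3 (0.30 to 1.35), -0.50 for DDIT4 (-0.58 to -0.42) and -0.48 for CHAC1 (-0.80 to -0.16). In footprints per mRNA edgeR called 1 of the 10 higher (SESN2, 0.54, adjusted p = 0.0048) and 1 lower (ATF4). The share over all genes was 4.16% (4 of the 10 had an unadjusted p under 0.05, and DESeq2 called 0).

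Genes most alike to each enzyme were found by the root mean square difference of log2 CPM, centred within each assay, over the 8 libraries, among the 3068 genes that averaged 100 counts or more in both assays. Nearest to ASNS were UCHL5, EPRS1 and CENPF (differences of 0.027, 0.029 and 0.031), of which EPRS1 encodes the synthetase that charges tRNAs with glutamate and proline. Nearest to GLUL were POLR2E, NUDT19 and U2AF2 (0.023, 0.030 and 0.043), to GOT1 LBR, PWP1 and ANXA7 (0.037 to 0.041), and to PYCR1 SLC25A6, CDT1 and COL18A1 (0.020 to 0.029). GLUD1 was closest to BCAT2, XBP1 and ACTN1 (0.029 to 0.042), GOT2 to GSPT1, MRPL37 and MLF2, ALDH18A1 to PSMD13, PSMB5 and DAG1, and OAT to BCORL1, MCM3AP and NRM. No enzyme of the 8 was among the 3 nearest to another. These distances describe 8 libraries that share 2 genotypes and say nothing of control.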

How the data were processed

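Per the labels, RNA was primed with oligo(dT) for RNA-seq, and RNase I footprints of 25 to 40 nucleotides were sized on a gel and cleared of ribosomal RNA, giving 8 libraries, grouped by their titles. The authors deposited raw gene counts, listed by Ensembl ID and left without normalization. The submitters' processing notes list the human build as hg38 and GRCh38 and the tools STAR, featureCounts, Bowtie2, Trimmomatic and cutadapt, without roles or versions. The sources used here do not give the annotation release, counted feature, strand setting or handling of multiply matching reads. Of 20453 gene IDs 20407 matched a symbol; positions and promoters are RefSeq GRCh38.p14.

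The main test was edgeR 4.0.16 under R 4.3.3 (glmQLFit with legacy set to FALSE, glmQLFTest, TMM factors within each assay, filterByExpr), with Benjamini-Hochberg adjustment over all genes tested and calls under 0.05. The mRNA and footprint comparisons used 4 libraries each. Footprints per mRNA used the interaction of genotype and assay over 8 libraries. SE is the log2 fold change divided by the root of F. Nothing in the labels ties replicates to separate cultures, so each p-value reflects variation among these libraries alone, possibly technical. The procedure was tested on simulated counts. Alternatives were DESeq2 1.42.0, RLE factors, no filter, the legacy option, an assumed coefficient of variation of 10%, replicate blocks, removal of the trend with gene density (loess) and each library left out. Summing the footprint pairs was added after seeing the data.

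Named were the 8 enzymes, DNMT3A, up to 4 genes of the smallest p from each of 5 lists, and called list genes outside that rule where said. Some listed genes are counted but not reported here. Members and lists were chosen with earlier results of these data known. Depth limits precision most in the mutant footprints, where 3 counts stand for up to 4.97 CPM. Intervals and floors cover counting error only, because without molecular identifiers a read is not a molecule.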

Additional observations from a re-analysis of the deposited data

Results flagged for a closer look

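The genotype difference in footprints departed from that in mRNA by edgeR's interaction test for 2 of the 8 enzymes, where 4.16% of all genes were called. For GLUL the interaction was -0.34 (adjusted p = 7.3e-05), with lower footprints per mRNA in both mutant replicates (0.899 and 0.843) than in both wild-type replicates (1.10 and 1.10). For GOT1 it was 0.35 (adjusted p = 0.0477; lost under 10 of 16 alternatives, among them DESeq2 with an adjusted p of 0.297 and 7 of the 8 left-out libraries), with 2.54 and 2.74 in mutant above 2.15 and 1.96 in wild type. Among the neighbouring genes the same test gave SESN2 at 0.54 (edgeR adjusted p = 0.0048; 0.33, adjusted p = 0.282, without mutant footprint replicate 2). GMPS stood at -0.43 (edgeR adjusted p = 0.0233; lost without 4 of the 8 libraries, adjusted p up to 0.347). ATF4 stood at -0.58 (edgeR adjusted p = 0.028; lost without wild-type footprint replicate 2 or either mutant footprint replicate, adjusted p up to 0.238). DESeq2 called none of the 3 neighbouring genes (adjusted p = 0.071 for SESN2, 0.186 for GMPS and 0.071 for ATF4). Of 26 genes tested from the 4 metabolic lists edgeR called 0 higher and 1 lower in footprints per mRNA. Of the 10 stress regulators it called 1 higher and 1 lower, where 4.16% of all genes were called.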

How the results depend on the processing

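GLUL, ASNS and GOT1 footprints and GLUL and ASNS mRNA kept their calls under every alternative but the assumed coefficient of variation of 10%, under which only the GLUL footprint fall of the 9 calls was kept. That setting, an edgeR fit, called 0, 1 and 0 enzymes and 313, 288 and 13 genes in mRNA, footprints and footprints per mRNA; at an unadjusted p under 0.05 the main edgeR test gave 4, 4 and 2 enzymes, and DESeq2 called 3, 3 and 1. DESeq2 called 1467, 397 and 123 genes, against 4060, 1950 and 381 by edgeR. In footprints 133 of its genes were higher and 264 lower (945 and 1005 by edgeR). Without a filter edgeR called 1 enzyme in footprints per mRNA and 315 genes, 93 higher and 222 lower (153 and 228 with it). With the density trend removed 5 enzymes were called in mRNA (1 higher, 4 lower) in place of 3, and GOT1 mRNA turned to -0.032. With each library left out, calls ran from 2280 (without wild-type replicate 2; 2653 without mutant replicate 1) to 3838 genes in mRNA, 274 (without mutant replicate 1; 950 and 1155 without mutant or wild-type replicate 2) to 1799 in footprints and 142 (without mutant footprint replicate 1; 229 without replicate 2) to 448 in footprints per mRNA, and enzymes called in footprints per mRNA from 1 to 2. Sign turned with a library left out for uncalled values: GLUD1 mRNA (-0.088 to 0.062), GOT2 footprints (-0.11 to 0.054) and, in footprints per mRNA, GOT2 (-0.023 to 0.14), ALDH18A1 (-0.13 to 0.025; 0.014 without mutant footprint replicate 2) and OAT (-0.048 to 0.11). Of the neighbouring genes' values under the alternatives, 103 lost their call and 291 kept it or, with the footprint pair summed, their direction; with the density trend removed the mRNA calls of PYCR3, SLC25A11, CTPS2 and GMPS and the footprint calls of SLC25A13, CAD and CHAC1 were also lost. Of the neighbouring genes' mRNA calls, only those of DDIT4, ATF5 and CEBPB were kept under the assumed coefficient of variation of 10%. The cause of these changes was not tested.

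Enzymes below the median footprints per mRNA level numbered 0 in wild type by replicate number 1 alone (1 by the group means) and 1 in mutant by replicate number 2 alone (2 by the group means).

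Same-numbered libraries are not stated to share a culture, and the correlations of their deviations were 0.091 between genotypes in mRNA, 0.14 in footprints, and 0.084 and 0.13 between assays within wild type and mutant. The replicate block gave 4168 mRNA, 2076 footprint and 508 footprint-per-mRNA calls, and the replicate block of genotype and replicate gave 598 of the last. OAT mRNA alone of the 8 enzymes changed its call, to an adjusted p of 0.0483.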
